A study of Mus musculus with 3 samples.

Results

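The genes described here are 20 aminoacyl-tRNA synthetases of the cytosol and 17 genes of the integrated stress response, 37 of 55536 annotated genes, found in the files by a list of gene symbols. They were measured in RNA of the chromatin fraction of C57BL/6J mouse macrophages derived from bone marrow, a fraction that holds transcripts still being made or not yet released. All 3 libraries, replicates 1, 2 and 3, came from cells that had received Lipid A, the part of bacterial lipopolysaccharide sensed by Toll-like receptor 4, at 100 ng/ml for 12 h, had been kept without it for 12 h and had then received 100 ng/ml again for 60 min. No untreated cells and no cells with a single dose belong to the set, so the values describe cells after both doses and show no response. The labels do not say whether the replicates came from separate animals or cultures, so each p-value reflects the spread among these libraries alone, which may be technical.

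Aminoacyl-tRNA synthetases join each amino acid to its tRNA, and several of them sit together in the cytosol in the multisynthetase complex. The integrated stress response starts when a kinase such as GCN2 (gene Eif2ak4), PERK (Eif2ak3), HRI (Eif2ak1) or PKR (Eif2ak2) phosphorylates the translation factor eIF2. General protein synthesis then falls while the mRNA of the transcription factor ATF4 is translated more, and ATF4 switches on synthetase genes, amino acid enzymes, the factor CHOP (Ddit3) and brakes on the response. Much of the control of ATF4 acts on translation and on protein, and neither was measured in chromatin RNA.

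The libraries of replicates 1, 2 and 3, made from 1000, 250 and 500 ng of RNA, held 12602702, 17222239 and 17042691 gene counts. A level of 3 counts corresponded to 0.238, 0.174 and 0.176 CPM, that is counts scaled to the total of each library. The macrophage label was borne out by all 9 macrophage markers, with 39083 to 50955 summed counts per library, while markers of neutrophils and of B cells had at most 5 summed counts. Of the 6 T and NK cell markers only Cd4 was detected, and the list summed to 62 to 116 counts. Replicate 2 stood apart through 11 fibroblast and stromal markers, whose summed counts were 32, 52503 and 137 in replicates 1, 2 and 3, all 11 being highest in replicate 2. In bulk RNA, fewer cells of a type and less RNA per cell cannot be told apart. TPM, the abundance per transcript length scaled to the same total in every library, also ran higher in replicate 2 for protein-coding genes in general, by a median of 0.52 on the log2 scale against the mean of the others. With TMM scaling of the counts that difference was 0.06. Protein-coding genes held 26.9, 35.1 and 30.1% of all TPM in replicates 1, 2 and 3.

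Promoter sequences are shown first because ATF4 acts through a short element, the C/EBP-ATF response element (CARE), by which its targets among the synthetase and amino acid genes are known. RefSeq promoters on GRCm38.p6, the assembly called mm10, reaching from 250 bases before to 50 bases after the start, matched 29 of the 37 genes. Cars, Hars, Lars, Nars, Rars, Vars, Wars and Ppp1r15b were not matched. The letters TGATGNAA, searched on both strands, occurred in 8 of the 29 promoters (27.6%), in at least 1 promoter of 4.51% of 27025 genes, and in 3.97% of all 32851 promoters of the same length. Among them were 5 of the 13 matched synthetases, including Gars, Iars, Tars and Yars, and the stress response genes Trib3, Chac1 and Asns. The CRE letters TGACGTCA, the cyclic AMP response element, occurred in 1 of 29, Ppp1r15a, and in 2.03% of all genes. The windows that follow run 5′ to 3′ on the strand of the gene, with the match in capitals. On the opposite strand the CARE letters read TTNCATCA.
Gars, chr6:55037941-55038000, + strand: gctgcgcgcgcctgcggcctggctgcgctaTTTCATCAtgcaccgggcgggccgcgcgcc
Tars, chr15:11399659-11399688, − strand: gggccaggagtcccgTTGCATCAgctggtt
Chac1, chr2:119351023-119351082, + strand: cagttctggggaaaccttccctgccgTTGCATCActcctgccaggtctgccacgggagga
Asns, chr6:7693214-7693243, − strand: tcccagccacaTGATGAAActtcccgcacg
Ppp1r15a, chr7:45526269-45526328, − strand: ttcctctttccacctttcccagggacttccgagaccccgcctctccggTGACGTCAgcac

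The Tars and Asns windows overlap an annotated exon of the gene and the other windows overlap none. The Asns window lies wholly inside the gene as annotated in GENCODE, which spans 7675169 to 7693254. Counted from the RefSeq start, the matches lay at −30 to −23 in Gars, −15 to −8 in Tars, −193 to −186 in Chac1 and −23 to −16 in Asns. Those of Iars, Yars and Trib3 lay after the start, at 8 to 15, 4 to 11 and 15 to 22. Genes with the CARE letters had a median level of 13.0 TPM beside 9.27 TPM for matched genes without them. Among the named genes with the letters, mean levels ran from 2.15 TPM (Chac1) to 25.6 TPM (Yars). Of the 8 genes with them 5 were synthetases, genes without a matched promoter entered neither median, and the difference was not tested. A match is a description of the letters, and binding was not measured.

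Both groups of genes lay above the median protein-coding gene on chromatin. The median level of the 20 synthetases was 12.1, 17.9 and 13.5 TPM in replicates 1, 2 and 3, or 14.5 ± 3.03 TPM (SD, n = 3). The 17 stress response genes had medians of 6.82, 12.6 and 6.51 TPM, or 8.64 ± 3.43 TPM. The 15865 protein-coding genes that had a count somewhere had a median of 2.51 ± 1.29 TPM. A level of at least 10 TPM in every library was reached by 17 of the 37 genes, 11 synthetases and 6 stress response genes, while 16.7% of all 22028 protein-coding genes and 23.2% of those with a count reached it. The mean of log2(TPM + 1) was higher for synthetases than for stress response genes by 0.63, 0.59 and 0.82 in replicates 1, 2 and 3, a difference of 0.68 ± 0.12. It was 1.12 with the kallisto tables. These lists differ in makeup and number, and their difference was not tested.

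Among the synthetases Cars, which charges cysteine (ENSMUSG00000010755.17, mm10 chromosome 7, 143557230 to 143600090, − strand), stood highest with 95.4, 94.6 and 84.1 TPM in replicates 1, 2 and 3 (91.4 ± 6.31). Eprs, the fused enzyme for glutamate and proline (chromosome 1, 185363044 to 185428360, + strand), had 65.2, 85.5 and 73.6 TPM. Nars, for asparagine, had 56.6, 92.2 and 69.2 TPM. Cars lay above Eprs and Nars in each library, while Nars was above Eprs in replicate 2 and below it in the others. With kallisto Nars was above Eprs in 3 of 3 libraries. Cars, Eprs and Nars lay above Aars, for alanine, in every library, with 42.0, 49.6 and 35.8 TPM. This order holds for TPM only. In CPM, which is not divided by length, Eprs had 291, 248 and 247, Aars 191, 152 and 121 and Cars 134, 86.7 and 92.9. Eprs and Aars thus lay above Cars in every library on that scale, and Aars lay above Nars, with 91.3, 86.6 and 76.7 CPM. Aars shares 1326 exon bases on the same strand with Exosc6, so how their reads divide is uncertain.

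A middle group followed without a clear step. Lars, for leucine, had 28.2, 47.6 and 37.3 TPM. Sars, for serine, had 34.7, 39.2 and 23.1 TPM. Rars, for arginine, was the steadiest by TPM, with 26.9, 30.6 and 29.9 TPM, a coefficient of variation of 6.71%. With TMM scaling Rars had 40.1, 25.9 and 29.8 CPM (SD 0.32 on the log2 scale). On that scale 49.3% of protein-coding genes passing the count filter had a smaller SD. Yars, for tyrosine, had 21.2, 34.1 and 21.5 TPM and Qars, for glutamine, 17.1, 37.3 and 22.1 TPM. The glycine enzyme Gars had 10.7, 19.2 and 13.0 TPM and the methionine enzyme Mars 10.3, 13.8 and 13.9 TPM. The ranges of neighbours in this order overlapped over the libraries. Qars nonetheless lay above Gars in each library, with means of 25.5 and 14.3 TPM.

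Iars, for isoleucine, had 13.5, 15.7 and 7.29 TPM and Tars, for threonine, 8.08, 16.6 and 10.03 TPM. Of the Iars level, 4.74, 5.48 and 0 TPM lay in Iars-207, a model of 356 bases with 14, 8 and 0 counts. Wars, for tryptophan, a gene known to respond to interferon, averaged 9.32 ± 2.81 TPM with 8.71, 12.4 and 6.86 TPM. Farsa and Farsb encode the α and β subunits of the phenylalanine enzyme. Farsa had 6.51, 11.5 and 9.75 TPM and Farsb 2.53, 9.81 and 3.70 TPM, so Farsa was higher in all 3 libraries. The order turned with the kallisto tables, a separate transcript quantification, where the means were 12.8 TPM for Farsa and 15.3 TPM for Farsb and Farsb was higher in replicates 2 and 3. The valine, aspartate and histidine enzymes Vars, Dars and Hars had means of 6.45, 6.21 and 6.13 TPM. Kars, for lysine, had the lowest mean with 2.82, 7.80 and 3.20 TPM. Farsb was lower than Kars in replicate 1 and Vars in replicate 3, and with kallisto the lowest mean was that of Vars, 7.16 TPM, against 12.6 TPM for Kars. All 20 synthetases were above 1 TPM in every library, and their means ran from 4.61 to 91.4 TPM.

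**Figure D1:**
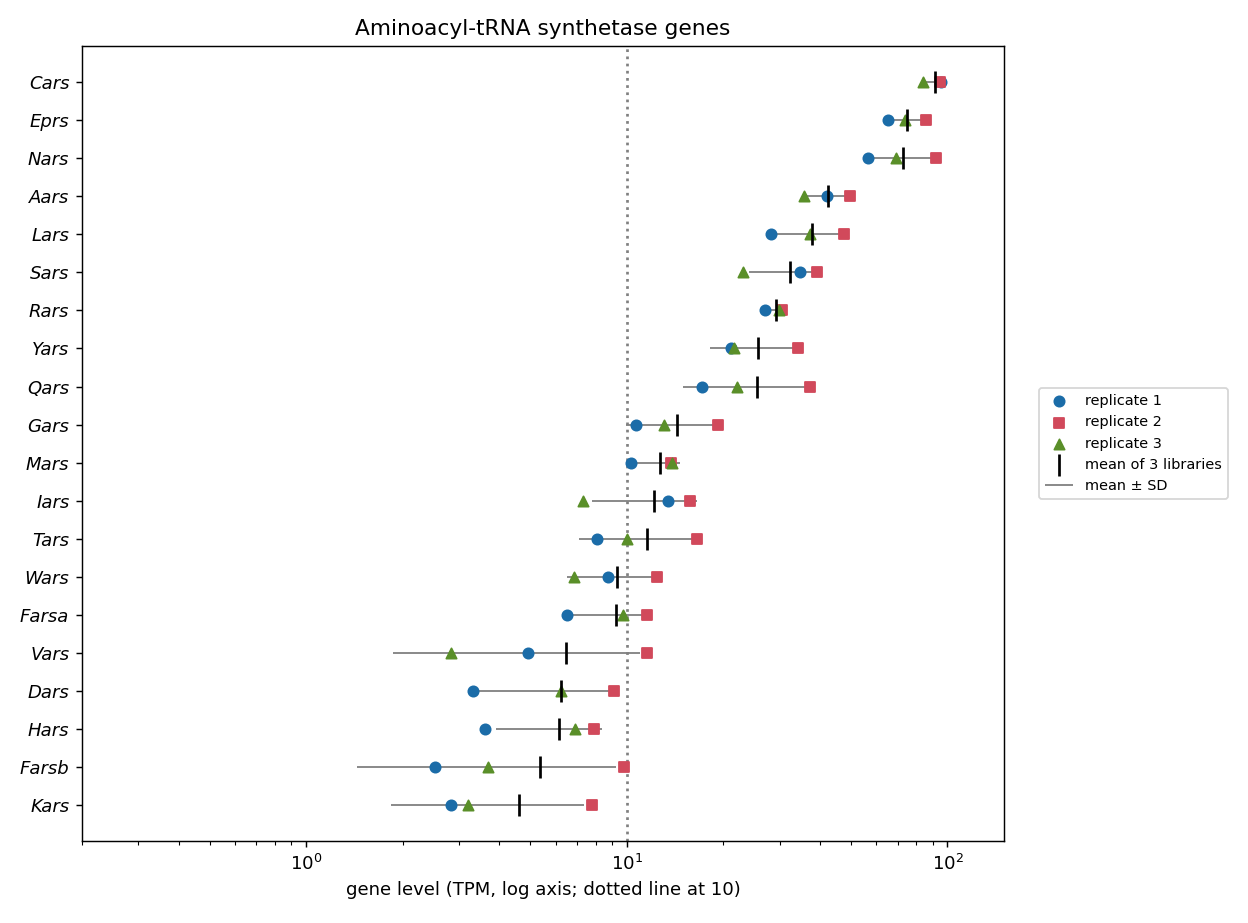
Level of each synthetase gene in TPM on a log axis, with replicates 1, 2 and 3 as circles, squares and triangles, the mean as a tick and the SD over 3 libraries as a grey line; the dotted line marks 10 TPM. Cars, Eprs and Nars sit highest. In replicate 2, 18 of the 20 genes have their highest TPM, as do 76.3% of protein-coding genes passing the count filter. With TMM scaling 9 of the 20 are highest there, beside 41.8% of those protein-coding genes.

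Levels inside and outside the multisynthetase complex overlapped. The 8 genes of the complex, Eprs, Lars, Rars, Qars, Mars, Iars, Dars and Kars, had a median of 18.8 ± 3.98 TPM and the 12 others 13.0 ± 4.30 TPM (SD, n = 3), with medians of 15.3, 23.1 and 18.0 TPM against 9.71, 17.9 and 11.5 TPM in replicates 1, 2 and 3. Within the complex the mean level ran from 4.61 TPM (Kars) to 74.8 TPM (Eprs). The scaffold genes of the complex were low, with Aimp1 at 8.22 ± 3.96 TPM, Eef1e1 at 1.86 ± 0.439 TPM and Aimp2 at 1.12 ± 0.974 TPM. Aimp2 shares 487 exon bases with Eif2ak1 on the opposite strand. It had 0.570 TPM without replicate 2 and 12.8 TPM with the kallisto tables. The 17 mitochondrial synthetases had a median of 3.54 ± 1.11 TPM, and 3 of them had at least 10 TPM in every library. These were Fars2 at 32.3 ± 2.99 TPM, Cars2 at 26.1 ± 6.68 TPM and Tars2 at 24.6 ± 10.6 TPM, whereas the proline enzyme Pars2 was lowest at 0.353 ± 0.361 TPM, or 0.145 TPM without replicate 2. With kallisto Tars2 was highest at 69.0 TPM, and Mars2 at 0.337 TPM lay below Pars2 at 0.745 TPM.

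Among the kinases that start the stress response, Eif2ak4, the sensor of uncharged tRNA, was highest of the 3 listed members with 14.3, 21.7 and 13.1 TPM in replicates 1, 2 and 3. Eif2ak1, the haem-regulated kinase, had 3.03, 5.95 and 3.57 TPM. Eif2ak3, the kinase of the endoplasmic reticulum, had 1.28, 4.99 and 1.05 TPM. Of this, 0.55, 1.75 and 0 TPM lay in Eif2ak3-203, a model of 347 bases with 2, 2 and 0 counts. Replicate 2 was highest in TPM for all 3 kinases, as for 76.3% of protein-coding genes passing the count filter. For Eif2ak3 replicate 2 lay apart from the others. PKR is the double-stranded RNA sensor and an interferon-stimulated gene, and its gene Eif2ak2, which is not among the 37, had 171, 215 and 199 TPM. It exceeded Eif2ak4 by 3.52 ± 0.29, Eif2ak1 by 5.28 ± 0.27 and Eif2ak3 by 6.01 ± 0.74 in log2(TPM + 1), in 3 of 3 libraries each. Exact two-sided sign flips over the libraries gave p = 0.25 for each of these 3 pairs and for the other 2 pairs compared, also after Benjamini-Hochberg adjustment over 5 pairs, and 0.25 is the smallest value 3 libraries allow.

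The substrate and its exchange factor were moderate to low. Of the eIF2 subunits, Eif2s2 had 39.3 ± 11.5 TPM, Eif2s1 12.2 ± 3.18 TPM and Eif2s3x 8.38 ± 2.63 TPM. Of the eIF2B subunits, Eif2b2 led with 14.4 ± 3.22 TPM, followed by Eif2b5 at 4.45 ± 1.23 TPM, Eif2b4 at 2.64 ± 1.51 TPM, Eif2b1 at 2.33 ± 1.64 TPM and Eif2b3 at 1.55 ± 0.968 TPM. Without replicate 2 Eif2b1 had 1.39 TPM and Eif2b3 0.995 TPM. With kallisto Eif2b1, at 5.24 TPM, lay above Eif2b4, at 3.57 TPM.

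The regulatory subunits that bring protein phosphatase 1 to eIF2 were both among the higher genes. Ppp1r15a, the inducible subunit GADD34 (ENSMUSG00000040435.12, chromosome 7, 45522916 to 45526268, − strand), had 95.4, 63.0 and 92.0 TPM. Of this, 0, 11.76 and 29.45 TPM lay in Ppp1r15a-203, a model of 389 bases with 0, 21 and 63 counts in replicates 1, 2 and 3. Ppp1r15b, the constitutive subunit CReP, had 22.5, 30.6 and 34.0 TPM. Ppp1r15a was higher than Ppp1r15b in 3 of 3 libraries, by 1.49 ± 0.51 in log2(TPM + 1). That order did not hold in CPM, where Ppp1r15a had 266, 94.2 and 128 and Ppp1r15b 141, 117 and 138. Ppp1r15a was thus higher in replicate 1 only on that scale. Ppp1r15b shares 640 exon bases with Gm26616 on the opposite strand. With the kallisto tables the means were 58.3 and 20.9 TPM.

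Of the transcription factors, Atf4 (ENSMUSG00000042406.8, chromosome 15, 80255184 to 80257541, + strand) had 45.7, 51.6 and 52.9 TPM (50.1 ± 3.83). Ddit3, which encodes CHOP (ENSMUSG00000025408.15, chromosome 10, 127290774 to 127296288, + strand), had 93.6, 77.2 and 55.7 TPM (75.5 ± 19.0). By TPM Ddit3 lay above Atf4 in every library. In CPM, which is not divided by length, Ddit3 had 78.63, 38.73 and 31.98 and Atf4 90.38, 62.77 and 71.06. Ddit3 thus lay below Atf4 in every library on that scale. Atf5, a close relative of Atf4 under the same translational control, had 6.82, 21.4 and 6.43 TPM, high in replicate 2 and alike in the others. Atf4 exceeded Atf5 by 2.22 ± 0.87 in log2(TPM + 1) in 3 of 3 libraries. Ddit3 and Mars face each other on chromosome 10 and share 68 exon bases on opposite strands, and no source used here gives the strand setting of the counting. A further gene identifier named Ddit3 holds a model of 105 bases, which had 0 expected counts in all libraries and 28.8, 7.80 and 0 estimated counts in the kallisto tables. It was left out of the levels of Ddit3. In all, 13 of the 37 genes share exon bases with a gene on the opposite strand, among them Atf5 with Il4i1 (82 bases), Farsb with Sgpp2 (248 bases) and Hars with Hars2 (195 bases).

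Feedback and stress effector genes were lower. Trib3, a pseudokinase that restrains ATF4 and CHOP, had 9.24, 12.6 and 9.23 TPM. Sesn2, a leucine sensor that restrains mTORC1, had 5.42, 10.6 and 5.24 TPM. Chac1, a glutathione-degrading enzyme, had 2.64, 2.80 and 1.01 TPM from 57, 51 and 20 counts. Ddit4, another inhibitor of mTORC1, had 0.260, 2.93 and 0.330 TPM from 6, 58 and 7 counts, the lowest mean of the 37 genes. None of the 4 reached 10 TPM in every library.

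The amino acid and folate enzymes ranged widely. The mitochondrial folate enzyme Mthfd2 led with 24.3, 25.8 and 16.4 TPM. Asns, which makes asparagine, had 13.7, 17.9 and 9.88 TPM. Psat1 and Phgdh act in serine synthesis, and Psat1 had 3.37, 10.3 and 6.51 TPM. Phgdh had 0.870, 12.0 and 0.840 TPM from 9, 188 and 8 counts, so nearly all of its signal lay in replicate 2. Shmt2, which passes the carbon of serine to folate in mitochondria, had 5.09, 9.47 and 4.62 TPM.

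**Figure D2:**
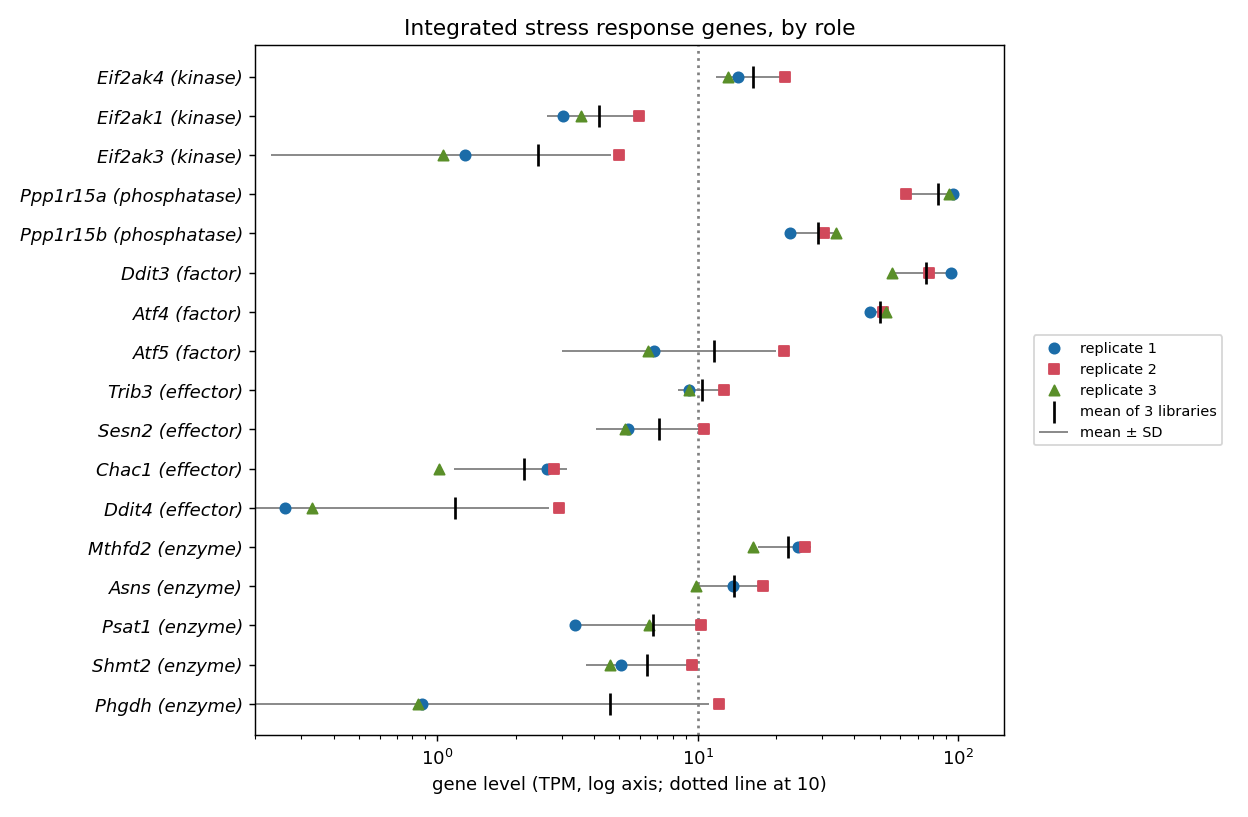
Level of each integrated stress response gene in TPM on a log axis, grouped by role, with replicates 1, 2 and 3 as circles, squares and triangles, the mean as a tick and the SD as a grey line, which runs past the left edge for Ddit4 and Phgdh. Ppp1r15a, Ddit3 and Atf4 lie highest, and Phgdh and Ddit4 in replicate 2 lie far from the other libraries.

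Other genes of the ATF4 pathway ran from undetected to above 100 TPM. The 21 listed genes had medians of 1.96, 6.53 and 2.10 TPM in replicates 1, 2 and 3 (3.53 ± 2.60), or 2.03 TPM without replicate 2, and 12.9 TPM with kallisto. At least 10 TPM in every library was reached by 9 of them. Slc3a2, the heavy chain of amino acid exchangers, had 114 ± 16.9 TPM, the stress gene Nupr1 73.7 ± 14.0 TPM and the transcription factor gene Atf3 64.0 ± 14.8 TPM. With kallisto Slc3a2 had 228 TPM, Atf3 125 TPM and Nupr1 86.1 TPM, so that Atf3 then lay above Nupr1. Stc2 was the lowest detected gene at 0.0533 TPM, with 0, 8 and 0 counts, so that its level rests on replicate 2 alone. Fgf21, with 0, 2 and 0 counts, was not detected.

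Counts scaled by TMM, which removes the general shift of replicate 2, gave another view of the spread. On this scale 16 of the 35 genes that passed the count filter were highest in replicate 2, where 41.8% of 10178 protein-coding genes passing the filter were highest. A further 16 were highest in replicate 1, where 28.2% of those genes were, and 3 in replicate 3, where 30.0% were. In deposited TPM 29 of the 35 were highest in replicate 2, beside 76.3% of those protein-coding genes. The median SD of log2 TMM-normalized CPM was 0.32 for the 35 genes and 0.33 for all protein-coding genes that passed. Without replicate 2 the median SD of the 35 genes was 0.21. Ddit4 and Phgdh did not pass.

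The steadiest genes were Eif2ak4, with 59.5, 61.2 and 59.0 TMM-normalized CPM (SD 0.03 on the log2 scale), and Lars, with 50.4, 49.6 and 53.5 (SD 0.06). Of all protein-coding genes passing the filter, 0.629 and 2.54% had a smaller SD. The most variable were Chac1, with 4.63, 2.80 and 1.46 TMM-normalized CPM (SD 0.83), and Ppp1r15a, with 265, 85.1 and 145 (SD 0.82). Ppp1r15a and Ddit3, with 78.4, 35.1 and 36.4, were highest in replicate 1 both on this scale and in TPM. Atf4, with 90.1, 56.8 and 80.8, was also highest in replicate 1 on this scale but lowest there in TPM. Replicate 1 was made from the most RNA, and what part that has in these differences was not tested.

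A set of genes was higher in replicate 2 on either scale. Eif2ak3 had 2.58, 6.83 and 3.46 TMM-normalized CPM in replicates 1, 2 and 3, so that replicate 2 lay 1.20 above the mean of the others in log2. Psat1 lay 1.13 above, Vars and Atf5 1.06 each and Farsb 1.02. In replicate 2 the 11 fibroblast and stromal markers held 52503 counts, against 32 and 137 in the others, and the part of this RNA in the levels of these genes was not tested. Without replicate 2 the mean level moved from 4.58 to 0.855 TPM for Phgdh, from 1.17 to 0.295 TPM for Ddit4, from 2.44 to 1.17 TPM for Eif2ak3, from 11.5 to 6.63 TPM for Atf5, from 5.35 to 3.12 TPM for Farsb, from 6.45 to 3.88 TPM for Vars and from 4.61 to 3.01 TPM for Kars.

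**Figure D3:**
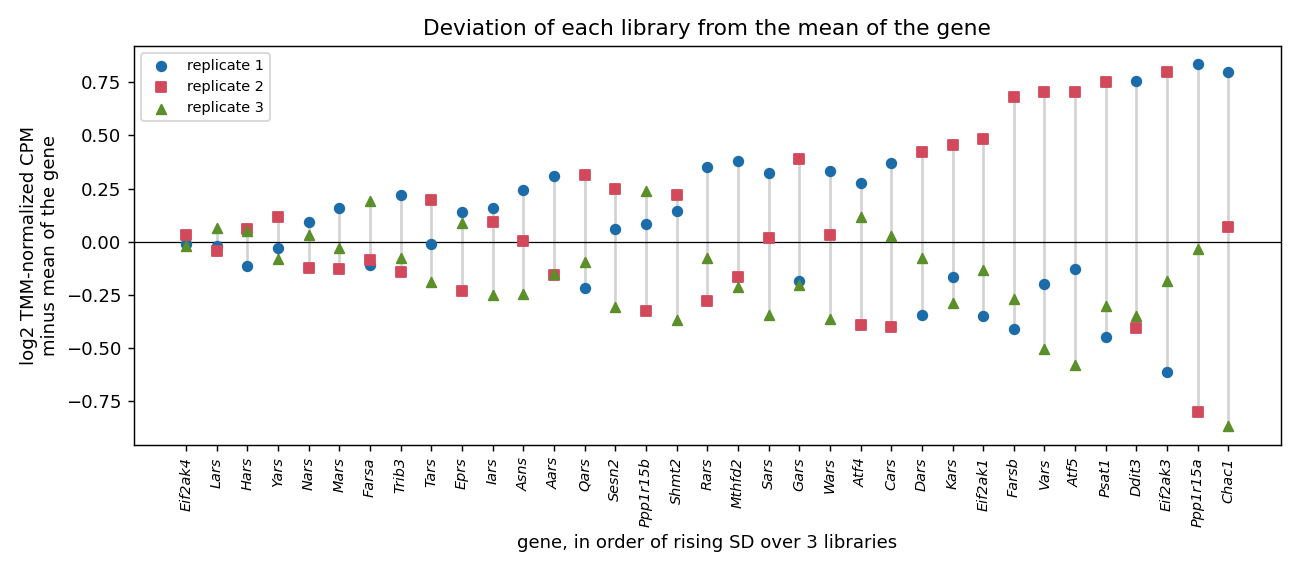
Log2 TMM-normalized CPM of each library minus the mean of the gene, for the 35 genes that passed the count filter, in order of rising SD; circles, squares and triangles are replicates 1, 2 and 3 and grey lines join the lowest and highest. Eif2ak4 and Lars hardly vary, while Ppp1r15a and Chac1 are highest in replicate 1 and Eif2ak3, Psat1, Atf5, Vars and Farsb in replicate 2.

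RNA on chromatin can be incompletely spliced, so the models of each gene with a retained intron were set against its protein-coding models. The measure was log2 of the summed TPM of the retained-intron class over that of the protein-coding class, each plus 0.1, fitted with limma on 4311 genes and tested against 0 with a Benjamini-Hochberg adjusted threshold of 0.05. It depends on how many models of which length are annotated, so 0 marks equal TPM and not equal splicing. Of the 37 genes 30 had both classes and 25 had enough RNA to be tested. Of these, 9 leaned to the retained-intron class (24.3% of all genes tested), 6 leaned to the protein-coding class (25.6% of all genes tested) and 10 did not pass. The median log2 ratio of the 25 genes was 0.14, beside −0.06 for all genes tested.

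By group, 8 of 18 tested synthetases were called in the retained-intron class and 4 in the protein-coding class, and 1 and 2 of 7 stress response genes were, beside 24.3 and 25.6% of all genes tested. The difference between the groups was not tested. With expected counts the synthetases gave 3 retained and 11 coding calls and the stress response genes 0 and 4, beside 16.4 and 55.0% of all genes tested. Within the multisynthetase complex 4 of 7 were retained and 1 was coding. Of the related lists, 2 of 5 tested mitochondrial synthetases were retained and 1 coding, 1 of 4 eIF2, eIF2B and PKR genes was retained and 0 coding, and 1 of 7 other ATF4 pathway genes was retained and 3 coding.

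Mars leaned to the retained-intron class under every setting tried. Its retained-intron isoforms held 8.95, 10.2 and 11.2 TPM in replicates 1, 2 and 3 and its coding isoforms 1.39, 3.52 and 2.67 TPM, a log2 ratio of 2.05 (SE 0.28, limma adjusted p = 0.00793). Its leading isoform, Mars-205, is annotated with a retained intron and led in all 3 libraries of the RSEM table, but not in replicate 3 with kallisto. Farsa had 5.97, 9.04 and 8.81 TPM in retained-intron isoforms and 0 TPM in its 2 coding models in all libraries. Its ratio of 6.31 (SE 0.23, limma adjusted p = 0.00168) therefore rests on the pseudocount. Nars had 36.1, 62.1 and 44.2 TPM against 14.6, 17.1 and 14.1 TPM, a ratio of 1.60 (SE 0.22, limma adjusted p = 0.00766). A further 5.91, 13.1 and 10.9 TPM of Nars lay in models marked for nonsense-mediated decay, outside the ratio.

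Eprs held 45.2, 61.2 and 48.8 TPM in retained-intron isoforms and 18.6, 23.5 and 23.9 TPM in its coding isoform, a ratio of 1.23 (SE 0.20, limma adjusted p = 0.0112). Yars, Tars, Lars and Mthfd2 had ratios of 1.503, 1.10, 0.96 and 1.18, with limma adjusted p from 0.00873 to 0.0277. In counts, Tars, Lars and Mthfd2 had fewer in the retained-intron class than in the coding class in every library. Lars had 124, 214 and 195 against 502, 722 and 587. Yars had 163, 228 and 161 against 149, 322 and 211, fewer in replicates 2 and 3. With expected counts Lars was called in the coding class (ratio −1.79, limma adjusted p = 0.00293). Qars, with 34 annotated isoforms, had 13.0, 24.3 and 16.8 TPM against 0, 5.94 and 2.24 TPM. Its ratio of 3.97 had an SE of 1.06 (limma adjusted p = 0.0373), because the coding class stood at 0 in replicate 1.

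Dars leaned to the coding class under every setting tried, with 0.480, 1.53 and 0.930 TPM in its retained-intron isoform against 2.83, 7.56 and 5.32 TPM, a ratio of −2.32 (SE 0.19, limma adjusted p = 0.00335). Sars had 5.56, 8.24 and 7.55 TPM against 29.1, 30.9 and 15.5 TPM, a ratio of −1.76 (SE 0.33, limma adjusted p = 0.0147). Asns, Hars, Trib3 and Wars had ratios of −1.73, −1.69, −1.87 and −0.89, with limma adjusted p from 0.00476 to 0.0207. Their retained-intron class rested on few counts, 10, 18 and 7 in Asns, 3, 9 and 14 in Hars, 9, 9 and 7 in Trib3 and 21, 22 and 13 in Wars.

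Neither tested transcription factor passed the threshold. Atf4 had 21.5, 20.8 and 23.4 TPM in its retained-intron isoform and 24.2, 30.8 and 29.5 TPM in coding isoforms, a ratio of −0.35 (SE 0.21, limma adjusted p = 0.21). Ddit3 had 46.1, 38.6 and 32.2 TPM against 47.5, 38.6 and 23.5 TPM, a ratio of 0.14 (SE 0.22, limma adjusted p = 0.623). Its leading isoform, Ddit3-202, has a retained intron and led in every library of either table. Cars had 50.9, 48.9 and 42.0 TPM against 29.2, 29.02 and 30.8 TPM, a ratio of 0.67 that just missed the threshold (SE 0.20, limma adjusted p = 0.0532), and a further 15.3, 16.1 and 11.3 TPM in a model marked for nonsense-mediated decay. Aars had a ratio of 0.01 (SE 0.19, limma adjusted p = 0.968). Ppp1r15a, Ppp1r15b, Atf5, Eif2ak4, Sesn2, Ddit4 and Chac1 have no retained-intron model and entered no such test.

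**Figure D4:**
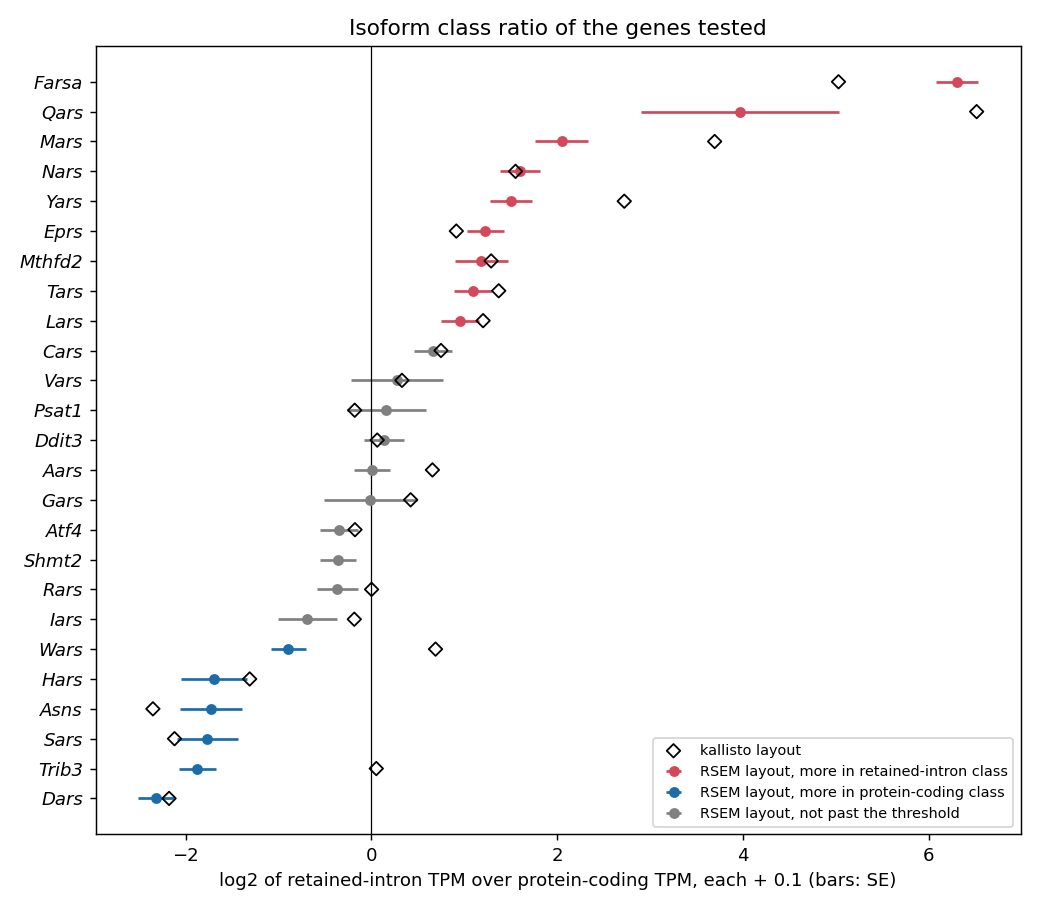
Log2 of retained-intron TPM over protein-coding TPM, each plus 0.1, for the 25 genes tested, as the mean of 3 libraries with its SE; red and blue circles passed the threshold towards the retained-intron and the protein-coding class, grey circles did not, and open diamonds are the kallisto tables (none for Shmt2). The 9 red genes stay on the right with kallisto, while Trib3 and Wars move from the left to the right of 0.

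The kallisto tables bear on these calls. With kallisto 13 of 27 tested genes were called in the retained-intron class (37.2% of all genes tested) and 4 in the coding class (27.7%). All 9 retained calls were among the 13, and of all genes called retained before, 86.6% were called so again. The 4 coding calls were Dars, Sars, Asns and Hars of the earlier 6, and of all genes called coding before, 75.2% were called so again. Cars (0.75, limma adjusted p = 0.0186) and Aars (0.66, limma adjusted p = 0.0255), not called before, joined the retained class. Trib3 moved to 0.05 and Wars to 0.69, and Wars was then called in the retained-intron class (limma adjusted p = 0.0242). Over 10 other settings Farsa, Mars and Dars, 3 of the 15 called genes, passed the threshold in the same direction in each. Without replicate 3, 2 of the 9 retained calls were left (9.88% of all genes tested), and without replicate 1, 2 of the 6 coding calls (19.7%). Counts not divided by isoform length gave 3 retained and 15 coding calls, where 16.4 and 55.0% of all genes tested were called.

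The level of single genes also depended on the table. Kallisto sums were above the other gene level in 24 of the 37 genes, as they were in 69.0% of protein-coding genes with a count and 69.9% of those with a mean of at least 1 TPM. Among the synthetases 19 of 20 were higher, Eprs being the exception at 69.3 against 74.8 TPM. As a ratio of the means Farsb moved most, from 5.35 to 15.3 TPM, then Kars from 4.61 to 12.6 TPM and Asns from 13.8 to 28.8 TPM. Cars, which stayed highest, moved by more TPM than these, from 91.4 to 122 TPM. Ppp1r15a moved down from 83.4 to 58.3 TPM and Atf4 from 50.1 to 36.3 TPM, while Ddit3 had 75.5 and 76.1 TPM. With the short second identifier added, the kallisto level of Ddit3 was 199, 90.5 and 59.2 TPM in replicates 1, 2 and 3, a mean of 116 TPM. The leading isoform was the same in all 3 libraries for 23 genes, and the same in both tables as well for 14. Both counts include 3 genes with a single annotated isoform, Ddit4, Chac1 and Sesn2, for which no other outcome was possible. The share over all genes was not computed, so these counts set the 37 genes apart from no others.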

How the data were processed

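Chromatin-fraction RNA depleted of ribosomal RNA was sequenced in 3 libraries, with a size range of 250 to 400 bases per the labels. The authors deposited expected counts and TPM per gene and transcript, with posterior mean TPM beside them, in the layout of RSEM on mm10 with GENCODE M21. Estimated counts and TPM per transcript were deposited in the layout of kallisto. No source used here gives the aligner, versions or strand setting. Rows that name no gene held 1.94, 0.269 and 0.386% of the counts and were left out. Floors of 3 counts cover counting error only. Chi-square per gene between libraries was 61.5 to 102, so none is a copy of another.

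The genes were found by a list of symbols, and that list, the related lists and the tests were chosen with earlier results of these data known. Values of related genes with kallisto or without replicate 2 were added after seeing the data. Named genes were all 37 members and, from each related list, the 3 highest, the lowest detected and every undetected gene (at most 3 counts in each library), or the full list where it had at most 9 genes. Isoform classes were fitted with limma 3.58.1 in R 4.3.3 on genes whose mean TPM summed over both classes reached 5. Expected counts rounded to whole numbers were scaled with edgeR 4.0.16 (TMM, filterByExpr, prior count 2), with DESeq2 1.42.0 size factors as the alternative. TMM factors were 1.01, 1.12 and 0.883. Pairs of genes were compared on log2(TPM + 1) by exact sign flips. Fits were checked on simulated data. Promoter sequences came from RefSeq (GRCm38.p6), and 1 of them is not reported here.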

Additional observations from a re-analysis of the deposited data

How the results depend on the processing

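No paired analysis was possible because all libraries belong to 1 group. The synthetase median of 14.5 TPM was 19.2 TPM with kallisto and 22.3 CPM without division by length, and the stress response median of 8.64 TPM was 13.7 CPM. The difference between the lists, 0.68 in mean log2(TPM + 1), was 0.84 and 0.87 with pseudocounts of 0.1 and 0.01 and 1.12 with kallisto. At a threshold of 1 TPM in place of 10, 35 of the 37 genes passed in every library. So did 8576 of all 22028 protein-coding genes, of which 15865 had a count. With expected counts, which are not divided by isoform length, 3 genes were called in the retained-intron class and 15 in the coding class. In deposited TPM 29 genes were highest in replicate 2, against 16 by TMM and by DESeq2 size factors, an alternative chosen after seeing the data. Leaving out 1 replicate at a time gave a synthetase median of 12.8 to 15.7 TPM, a stress response median of 6.67 to 9.71 TPM, a difference of 0.61 to 0.73, 17 to 19 genes at 10 TPM, 2 to 8 retained calls, 2 to 4 coding calls and a median SD of 0.208 to 0.331. With fewer libraries the isoform test has fewer degrees of freedom.

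Isoform ratios changed sign with expected counts in Aars (−1.14), Cars (−0.76), Lars (−1.79), Tars (−1.53), Vars (−0.56), Yars (−0.25), Psat1 (−0.98) and Mthfd2 (−1.23). They did so with kallisto in Gars (0.42), Rars (0.00248), Wars (0.69), Trib3 (0.0533) and Psat1 (−0.18), and with posterior means in Gars (0.0477). With 1 replicate left out the ratio ran from −0.0467 (without replicate 1) to 0.0449 for Aars, −0.36 (without replicate 1) to 0.79 for Vars, −0.39 (without replicate 1) to 0.54 for Psat1, −0.42 to 0.67 (without replicate 2) for Gars and −0.0220 (without replicate 3) to 0.227 for Ddit3. The cause of these changes was not tested. Depth limits the levels of Ddit4, Phgdh and Chac1, with 6 to 58, 8 to 188 and 20 to 57 counts. It also limits the coding calls of Hars, Trib3, Asns and Wars, whose retained-intron class held few counts.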
